A study of Arabidopsis thaliana with 6 samples.

Results

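The plastid chromosome of Arabidopsis thaliana carries, beside its photosynthesis genes, a set of genes for its own expression and for a few other tasks. The genes described here are the plastid-encoded ones whose symbol starts with rpl or rps (ribosomal proteins), rpo (RNA polymerase) or ycf, together with matK, accD, clpP, ccsA and cemA, where a probe set is paired with exactly 1 gene. They were chosen by symbol and chromosome, with no measured value, though earlier results of these data were known. These were 26 genes, read by 26 of the 13513 probe sets that are paired with 1 gene: 15 for ribosomal proteins, 4 for RNA polymerase subunits and 7 others. A further 12 plastid genes that fit the symbols, with each copy of a gene counted singly, lie in probe sets shared by several genes and are not among the 26.

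The study asked what protoplasting and cell sorting do to transcript levels in roots short of iron. Columbia seedlings, 6 days after germination, were moved off iron for 24 hours, to a medium that held 0.3 mM ferrozine, an iron chelator, in place of ferrous sulfate. Sorted cells (3 arrays) were root protoplasts, root cells freed of their walls, that passed through a fluorescence-activated cell sorter with all cells kept. Whole roots (3 arrays) were harvested intact after a similar treatment. Both groups were iron-deficient, so nothing here compares iron supplies, and no gate selected a cell type. Separate cultures for the replicates are not stated, and the p-values thus cover only the spread of these 6 samples, which may be technical. Values are MAS5 signal intensities, scaled so that arrays share one trimmed mean, and a level is therefore relative to the rest of its array. Array medians lay at 74.9 to 91.5 in sorted cells and 78.6 to 81.1 in whole roots; precision is limited by how few arrays there are.

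Root plastids are mostly colourless, among them the starch-filled amyloplasts of the root cap. As in bacteria, many of their genes are transcribed in long units that are then cut, spliced and edited. A bacterial-type polymerase, whose core is encoded by the rpo genes, shares the work with phage-type polymerases that are encoded in the nucleus. In leaves the phage type is known for transcribing the rpoB unit and accD, and the bacterial type for most photosynthesis genes. Plastid ribosomes are built from plastid-encoded and nuclear-encoded proteins.

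Nearly all of these plastid genes gave a stronger signal in sorted cells. Of the 26, 24 were bright enough to be tested and 23 of these rose in sorted cells, each by more than 2-fold, and none fell (limma, adjusted p under 0.05). Over all 13647 tested probe sets, 53.9% were called: 23.7% higher, of which most by at least 2-fold (17.3% of those tested), and 30.2% lower. The filter took the mean log2 signal over the arrays of both groups, so a gene dim in whole roots was tested only if bright in sorted cells. With no filter on dim probe sets 24 of the 26 rose, where 17.6% of 22746 did. In 24 of the 26 the lowest sorted-cell array read above the highest whole-root array, as it did for 27.9% of all tested probe sets. The median log2 difference, sorted cells minus whole roots, was 4.13 over the 26 genes (range 1.29 to 6.87), against -0.16 over all tested probe sets. The exceptions were rps14, which missed the threshold, and the dim rpoB, and in both of them the groups overlapped.

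**Figure D1:**
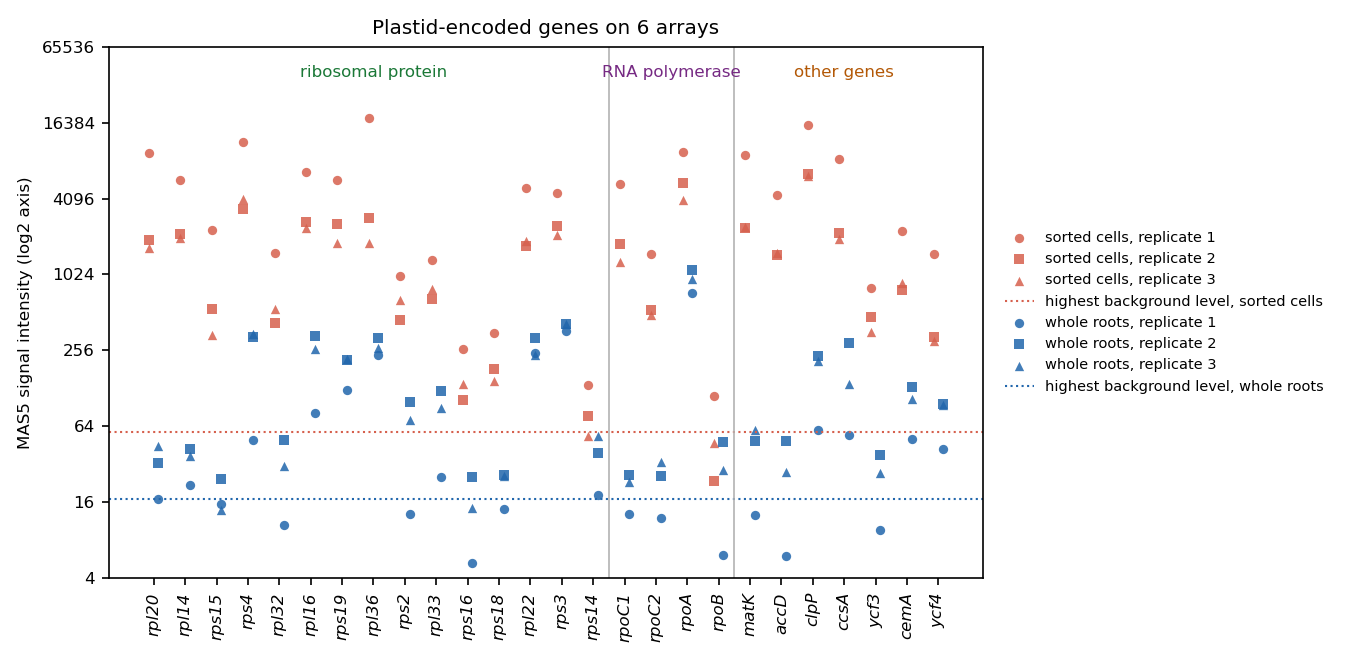
MAS5 signal intensity (log2 axis) of the 26 plastid-encoded genes on each of 3 sorted-cell arrays (red) and 3 whole-root arrays (blue), by class and, within a class, by falling difference. Dotted lines give the highest background level among the arrays of each group; sorted-cell replicate 1, the red circles, is the highest sorted-cell array for every gene, and the groups overlap for rps14 and rpoB.

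As background level, the highest signal among 27 controls for bacterial genes was taken on each array. It lay at 14.3 to 57.4 in sorted cells and 10.4 to 16.8 in whole roots. On sorted-cell arrays 25 of the 26 genes exceeded it 3 times out of 3. On whole-root arrays 15 did so, and the other 11 exceeded it on 2 arrays of 3. For these 11 the size of a difference is imprecise, and genes just above background share this limit. When an offset of 64 was put on each intensity, the median of the tested genes was 3.28 in place of 4.39, and all 24 tested genes passed. Outside the 11, rpl20 went from 6.74 to 5.07 with this offset.

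Of the 4 polymerase genes, 3 rose, and they differed widely in how far. rpoC1, which encodes the β′ subunit at the catalytic centre, had 5365, 1801 and 1281 in sorted cells, against 12.8, 26.1 and 23.0 in whole roots. Its lowest sorted-cell signal was 49.1 times its highest whole-root signal, and its log2 difference of 6.87 (SE 0.50; limma adjusted p = 1.67e-05) ranked highest of the 26. That rank rests on whole-root signals near background: with an offset of 16 matK (6.18) and rpl20 (6.09) stood above rpoC1 (6.01). rpoC2, for the β″ subunit, had 1487, 530 and 491 in sorted cells, against 11.8, 25.7 and 33.1 in whole roots. Here too the groups lay far apart, with a log2 difference of 5.08 (SE 0.49; limma adjusted p = 6.31e-05). For both genes whole-root replicate 1 read at or below background.

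rpoA and rpoB behaved differently from these. rpoA encodes the α subunit, on which the enzyme assembles, and had 9664, 5447 and 4016 in sorted cells, against 733, 1118 and 939 in whole roots. It was well above background on all 6 arrays, and its rise of 2.70 (SE 0.32; limma adjusted p = 0.000173) was the smallest of those that passed. rpoB, for the β subunit, had 110, 23.3 and 46.9 in sorted cells, against 6.09, 47.8 and 28.4 in whole roots. These arrays overlapped, and sorted-cell replicate 2 lay below background. rpoB was among the dimmest 40% of probe sets and was not tested. With no filter it stood at 1.29 (95% interval -0.52 to 3.09; limma adjusted p = 0.244), an interval that holds both no change and a rise of several fold.

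Of the 15 ribosomal protein genes, 13 of 14 tested rose and rps14 did not pass; the median log2 difference was 4.06 over the 15. All 7 genes of the large subunit rose. rpl20 had 9462, 1912 and 1654 in sorted cells, against 16.8, 32.8 and 44.2 in whole roots (log2 difference 6.74, SE 0.63; limma adjusted p = 5.23e-05). rpl14 had 5742, 2139 and 2010 in sorted cells, against 21.8, 41.7 and 36.9 in whole roots. Its difference of 6.50 had a small error for its size (SE 0.42; limma adjusted p = 1.13e-05), but came to 4.94 with an offset of 64. Both genes were dim in whole roots and bright in every sorted-cell sample.

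rpl36, for one of the smallest ribosomal proteins, had 17779, 2860 and 1817 in sorted cells, against 235, 319 and 267 in whole roots. Its rise of 4.06 (SE 0.69; limma adjusted p = 0.00122) leaned most on a single array: sorted-cell replicate 1 read 7.60 times the mean of the other sorted-cell arrays, the highest such ratio of the 26, and without it the rise was 3.07. Without sorted-cell replicate 3 it was 4.71. rpl22 had 4972, 1732 and 1893 in sorted cells, against 242, 317 and 234 in whole roots, a rise of 3.28 that was the smallest of the large subunit. rpl32, rpl16 and rpl33 rose by 4.80, 4.19 and 3.77. Their lowest sorted-cell signals were 8.53, 7.18 and 5.36 times their highest whole-root signals.

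In the small subunit 6 of 7 tested genes rose. rps15 had 2325, 547 and 340 in sorted cells, against 15.5, 24.2 and 13.7 in whole roots (log2 difference 5.46, SE 0.61; limma adjusted p = 0.000129). rps4, whose protein is among the first to bind ribosomal RNA in bacterial ribosomes, had 11521, 3405 and 4085 in sorted cells, against 49.7, 328 and 345 in whole roots. Whole-root replicate 1 stood well under the other two there, and without it the rise of 4.93 came to 4.01. rps19, rps2 and rps18 rose by 4.07, 3.88 and 3.31, of which rps2 came to 2.97 without whole-root replicate 1.

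rps3, for a protein at the entry of the messenger RNA channel, had 4507, 2467 and 2091 in sorted cells, against 361, 412 and 411 in whole roots. Its 3 whole-root values were close together, and its rise of 2.86 had the smallest error of the tested genes (SE 0.29; limma adjusted p = 7.30e-05). rps16 had 263, 102 and 137 in sorted cells, against 5.23, 25.1 and 14.3 in whole roots. It was too dim to be tested; with no filter it passed at 3.65 (SE 0.61; limma adjusted p = 0.00111), and its groups did not overlap.

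rps14 had 136, 76.3 and 53.2 in sorted cells, against 18.1, 39.1 and 53.7 in whole roots. The lowest sorted-cell array lay just under the highest whole-root array, and the log2 difference of 1.29 (95% interval 0.18 to 2.39; limma adjusted p = 0.0503) missed the threshold narrowly. It passed in 7 of 16 other analyses, over a range of adjusted p of 0.0395 to 0.168. rps14 is transcribed with psaA and psaB, the genes of the photosystem I reaction centre. psaB had 11690, 4222 and 4144 in sorted cells, against 580, 2451 and 2008 in whole roots, and rose by 2.05 (SE 0.57; limma adjusted p = 0.0136). psaA, not tested for dimness, had 51.6, 18.7 and 20.1 in sorted cells, against 19.9, 91.8 and 50.8 in whole roots, with overlap. psaA exceeded background on 1 of 3 sorted-cell arrays, so its difference says little about the unit. rps14 and psaB lay below the median of the 26.

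**Figure D2:**
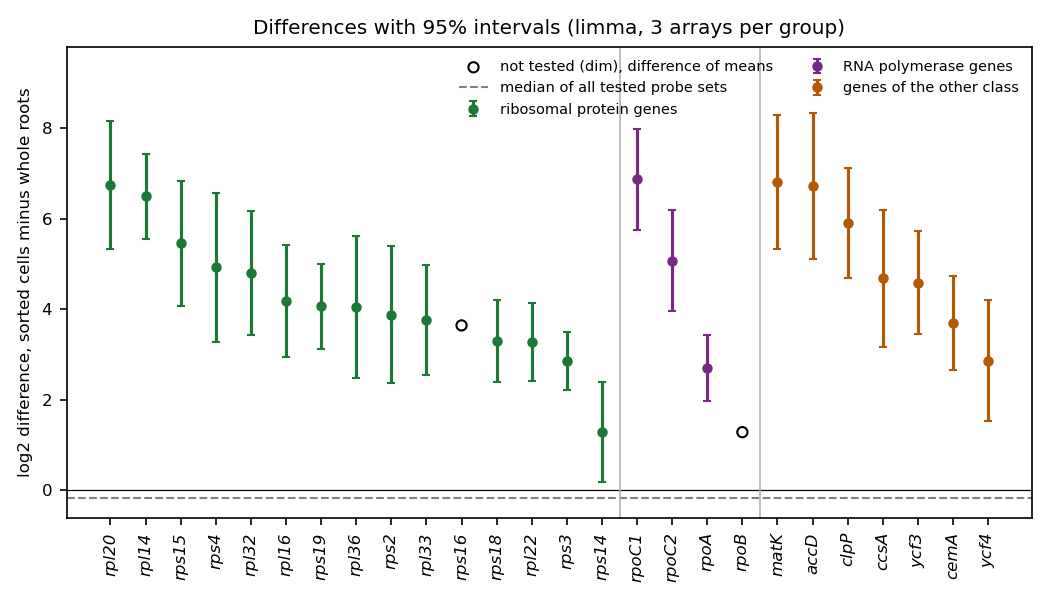
Log2 difference, sorted cells minus whole roots, for each of the 26 genes with its 95% interval from limma (3 arrays per group), by class. Open circles are rps16 and rpoB, which were not tested and are shown as differences of mean log2 values; the dashed line is the median of all tested probe sets at -0.16.

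All 7 genes of the third class rose, with a median of 4.68. matK, the only intron maturase encoded in the plastid, which helps to splice its group II introns, had 9049, 2401 and 2417 in sorted cells, against 12.7, 48.7 and 59.8 in whole roots (log2 difference 6.81, SE 0.65; limma adjusted p = 5.98e-05). accD, for the carboxyltransferase β subunit of the acetyl-CoA carboxylase that starts fatty acid synthesis, had 4335, 1453 and 1503 in sorted cells, against 5.92, 48.2 and 27.7 in whole roots. Replicate 1 was the highest sorted-cell array and the lowest whole-root array for both genes. The rise of accD was 6.73 (SE 0.71; limma adjusted p = 9.95e-05) but 5.86 without whole-root replicate 1, which read below background, and 7.37 without whole-root replicate 2. clpP, the plastid-encoded proteolytic subunit of the Clp protease, had 15606, 6396 and 6206 in sorted cells, against 59.2, 229 and 212 in whole roots. It was above background on every array, and its rise was 5.91 (SE 0.54; limma adjusted p = 4.79e-05).

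ccsA, ycf3, ycf4 and cemA serve the photosynthetic membrane or the envelope. ccsA, for a protein that attaches heme to c-type cytochromes, had 8500, 2196 and 1970 in sorted cells, against 54.2, 291 and 137 in whole roots, a rise of 4.68 (SE 0.67; limma adjusted p = 0.000461). ycf3 and ycf4 are both assembly factors of photosystem I. ycf3 had 802, 471 and 356 in sorted cells, against 9.47, 37.7 and 27.1 in whole roots, and rose by 4.59 (SE 0.50; limma adjusted p = 0.000115). ycf4 had 1490, 325 and 301 in sorted cells, against 41.7, 96.3 and 93.7 in whole roots, and rose by 2.87 (SE 0.59; limma adjusted p = 0.00328). cemA, for a protein of the plastid inner envelope, had 2245, 775 and 874 in sorted cells, against 50.7, 131 and 104 in whole roots, and rose by 3.70. In none of these did the groups overlap.

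The medians of the classes were close beside the spread within them: 3.89 for RNA polymerase (1.29 to 6.87), 4.06 for ribosomal proteins (1.29 to 6.74) and 4.68 for the others (2.87 to 6.81). No test of a difference between classes was made. The order of these log2 differences is not an order of transcript levels, since probe sets are not comparable in brightness.

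Some genes side by side on the chromosome differed widely in their rise, and others little. Along the 85 protein-coding genes of the RefSeq plastid chromosome, copies counted, 23 of the 26 lie with others of the 26 in 7 unbroken runs of genes that fit the symbols. The other 3 (accD, rps14 and rps15) have none of the 26 in such a run with them; rps15 lies beside ycf1, whose probe set reads both copies. In the run rps2, rpoC2, rpoC1, rpoB the differences were 3.88, 5.08, 6.87 and 1.29, and the 3 rpo genes of it are known as 1 transcription unit. Of these, rpoB was too dim to be tested and its groups overlapped. The other genes of the run read below background on whole-root replicate 1. Whether neighbours differ was not tested, in this run or in others. In rpl33, rps18, rpl20 and clpP they were 3.77, 3.31, 6.74 and 5.91. The longest run holds rpoA, rpl36, rpl14, rpl16, rps3, rpl22 and rps19, where they spanned 2.70 for rpoA to 6.50 for rpl14. The other runs were pairs, of which ccsA and rpl32 differed by 0.11, ycf3 and rps4 by 0.34, ycf4 and cemA by 0.83, and matK and rps16 by 3.17. accD is transcribed with psaI, ycf4, cemA and petA in that order, and there the differences were 6.73, 6.41, 2.87, 3.70 and 3.60.

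**Figure D3:**
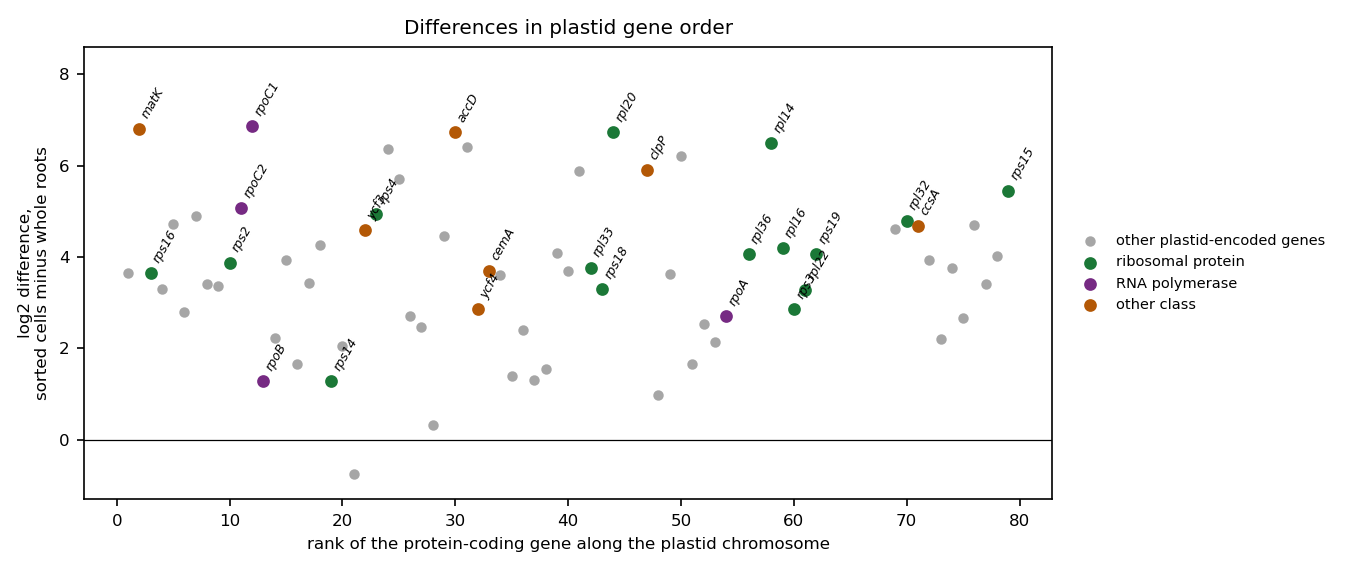
Log2 difference, sorted cells minus whole roots, of each plastid-encoded gene with a probe set of its own against its rank among the protein-coding genes of the plastid chromosome. Coloured points are the 26 genes by class and grey points 43 other plastid-encoded genes. Neighbours such as rps18 (3.31) and rpl20 (6.74) lie far apart, and others such as rpl32 and ccsA close together. The low rpoB (1.29) was too dim to be tested.

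Genes listed in 2 plastid copies, left out of the 26 because a probe set is paired with both, were higher in sorted cells as well. In 7 of 7 such probe sets, 2 of them for rps12, the groups did not overlap, beside 27.9% of all tested probe sets. The 4 that were above background on all whole-root arrays (rpl2, ycf1, rpl23 and rps7) had log2 differences of 4.03, 4.76, 6.35 and 6.64. Both rps12 probe sets and that of ycf2 read below background on 1 or 2 whole-root arrays, and no size is given for them. rps7 had 14491, 7594 and 6085 in sorted cells, against 22.2, 218 and 140 in whole roots. ycf1, for a large protein of the inner envelope translocon, had 8359, 3475 and 3484 in sorted cells, against 109, 213 and 221 in whole roots. These values add signal from both copies and were not tested here. The same direction held for 6 other shared probe sets with such symbols, none of them paired with a gene recognised as plastid. The genes of these 6 lie on chromosome 2 or have no chromosome listed. The groups of these probe sets did not overlap in 6 of 6. Sorted-cell replicate 1 was highest in 6 of 6, against 39.4% of all tested probe sets. Their median log2 difference was 4.51 (2.55 to 6.43), with some whole-root signals below background.

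Other plastid-encoded genes, of photosynthesis, ATP synthase and the NDH complex, moved the same way. Of 43 with a probe set of their own, 36 were tested, 32 rose and none fell, beside 23.7% and 30.2% of all tested probe sets, and the median over the 43 was 3.41, against 4.13 for the 26. By complex the medians were 3.97 for NDH, 3.31 for photosystem II, 3.08 for ATP synthase, 3.06 for the cytochrome b6f complex and 2.21 for photosystem I. rbcL of Rubisco rose by 4.45. Whether the 26 differ from the 43 was not tested, and their ranges overlap, since the 43 run from -0.75 to 6.41.

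The nuclear genes whose products work with these plastid genes did not share a direction. Of 100 such genes listed, the annotation paired 20 with a probe set of their own, and 16 were tested. It leaves 8730 probe sets without a listed gene. Of the 16, 2 rose, 2 fell and 12 missed the threshold, where 23.7% of all tested probe sets rose and 30.2% fell. Whether the partner genes differ from these shares was not tested. The median of the 16 log2 differences was -0.035. Of 9 tested nuclear genes for plastid ribosomal proteins, AT5G47190 had 223, 248 and 157 in sorted cells, against 68.2, 95.8 and 71.3 in whole roots, and rose by 1.41 (SE 0.25; limma adjusted p = 0.00165). AT5G65220 passed narrowly at 0.69 (limma adjusted p = 0.0459) and lost its call in 9 of 16 other analyses, among them those without sorted-cell replicate 2 or without any 1 of the whole-root replicates, over a range of adjusted p up to 0.158. AT5G24490 went the other way, with 204, 245 and 169 in sorted cells, against 478, 471 and 742 in whole roots, and fell by 1.44 (SE 0.25; limma adjusted p = 0.00131). AT3G54210 stood at 0.25 and AT2G43030 at 0.29, and neither passed.

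Among 5 tested nuclear genes of the Clp protease, AT1G09130 fell by 1.25 (SE 0.23; limma adjusted p = 0.00196), with 145, 199 and 249 in sorted cells, against 462, 435 and 483 in whole roots. CLPP4, a proteolytic subunit that partners clpP, had 270, 297 and 269 in sorted cells, against 352, 402 and 340 in whole roots, and did not pass at -0.39 (limma adjusted p = 0.107). AT1G68660, AT4G25370 and AT4G12060 stood at 0.21, 0.11 and 0.079 and did not pass. CcdA and AT1G49380, listed for cytochrome c maturation as ccsA is, stood at -0.49 and -0.48, neither past the threshold. AT4G25370 passed at 0.63 and AT1G49380 at -0.73 once sorted-cell replicate 1 was removed. Of 8 listed phage-type polymerases and sigma factors, AT5G15700 had a probe set, too dim to be tested. It read 45.0, 8.37 and 8.99 in sorted cells, all below background, against 84.9, 73.5 and 80.9 in whole roots, so that it was at least 2.57-fold lower in sorted cells. No listed gene of the polymerase-associated proteins or of nuclear acetyl-CoA carboxylase subunits is paired with a probe set here.

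**Figure D4:**
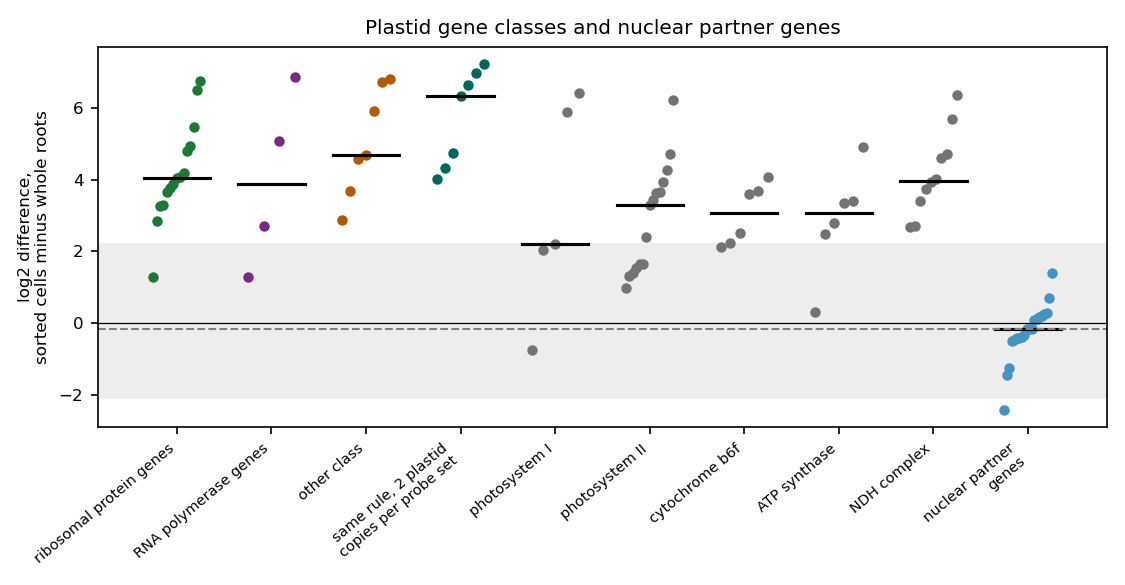
Log2 difference, sorted cells minus whole roots, of single probe sets (points) and their median (bars) for the 3 classes, for probe sets that read 2 plastid copies, for plastid photosynthesis complexes and for 20 nuclear partner genes, tested or not. The grey band holds the middle 90% of all tested probe sets, with their median dashed; 24 of the 26 genes lie above its upper edge of 2.21, all but rps14 and rpoB, and 19 of the 20 nuclear partners lie within the band, AT5G15700 below it.

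Within each group the 26 genes moved together from array to array, and so did the 43 other plastid-encoded genes, with sorted-cell replicate 1 highest in 42 and whole-root replicate 1 lowest in 43. Sorted-cell replicate 1 was the highest sorted-cell array for 26 of the 26, against 39.4% of all tested probe sets, at 1.81 to 7.60 times the mean of the other sorted-cell arrays. Whole-root replicate 1 was the lowest whole-root array for 24 of the 26, against 36.3% of all tested probe sets. The exceptions were rps15 and rpl22. The median deviation from a gene's group mean was 0.98, -0.50 and -0.53 (log2) on the 3 sorted-cell arrays and -0.88, 0.52 and 0.32 on the 3 whole-root arrays, where all tested probe sets had medians within 0.019 of 0. A gene's SD among replicates was 0.86 in sorted cells and 0.79 in whole roots as a median over the 26 (log2), and 0.37 and 0.18 over all tested probe sets. Without sorted-cell replicate 1, 23 genes passed with a median of 3.86, and 7 of the 23 called folds shrank by over 1.5 times: beside rpl36, those of rpoC1 (6.27), matK (6.18), rpl20 (5.94), rps15 (4.65), ccsA (4.01) and ycf4 (2.11), as log2 differences. Without whole-root replicate 1, 23 passed with a median of 3.98, and 10 of those folds shrank by over 1.5 times: beside accD, rps4 and rps2, those of matK (6.12), clpP (5.28), rpl32 (4.17), ccsA (4.06), ycf3 (4.00), rpl16 (3.57) and rpl33 (3.09).

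**Figure D5:**
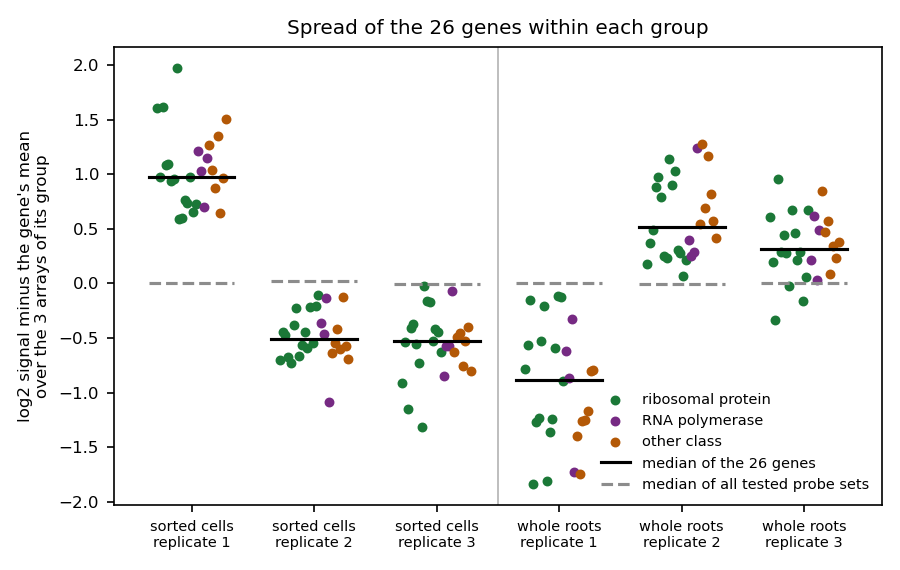
Log2 signal of each of the 26 genes minus its mean over the 3 arrays of its group, by array, with the median of the 26 (black bars) and of all tested probe sets (grey dashed bars). The medians of the 26 are 0.98 on sorted-cell replicate 1 and -0.88 on whole-root replicate 1, while those of all tested probe sets stay near 0.

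Other measures moved with the groups, and their part in these results was not tested. The 25S ribosomal RNA control probe set read 5690, 9583 and 8318 in sorted cells, against 97.5, 551 and 378 in whole roots. It was lowest on sorted-cell replicate 1, where the plastid genes were highest, and lowest on whole-root replicate 1, where they were lowest too. The log2 difference between 3′ and 5′ control probe sets of actin was 5.53, 4.09 and 3.37 in sorted cells, against 1.60, 1.61 and 1.85 in whole roots, and a second actin pair read 4.85, 5.35 and 5.19 in sorted cells, against 4.84, 4.81 and 5.73 in whole roots. For GAPDH a pair read 5.12, 3.41 and 2.44 in sorted cells, against 0.67, 0.69 and 0.91 in whole roots. A second GAPDH pair differed less, with 2.46, 1.42 and 1.20 in sorted cells, against 0.64, 0.39 and 0.43 in whole roots. Markers of green shoot tissue did not rise: the 2 of 6 with a probe set, RCA and LHCB4.1, fell, and their summed signal was 68.2 to 141 in sorted cells, against 503 to 569 in whole roots. Of the root markers, the hair genes EXPA7 and EXPA18 and JKD of the ground tissue fell, AGL42 did not pass at 0.43, and AT1G65570, listed for the root cap, rose, with 6875, 3069 and 3523 in sorted cells, against 222, 187 and 198 in whole roots. All of these but JKD, RCA and LHCB4.1 read above background on all 6 arrays. In such bulk samples a change in the number of plastid-rich cells, or of plastids, and a change in RNA per cell cannot be told apart.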

How the data were processed

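RNA of 3 sorted-cell and 3 whole-root samples was hybridised to 1 Affymetrix array each, after column extraction and amplification in 2 cycles, per the labels' protocols. The deposited table holds linear signal intensities, which the authors computed with MAS5, per the submitters' processing notes. Its version and scaling target were not given in the sources used here, and detection calls were not used. The trimmed mean was 250.02 or 250.03 on every array, so the values were used as deposited. Probe sets were named through the platform annotation (13513 with 1 gene, 503 with several, 8730 not listed) and plastid genes recognised by gene ID in RefSeq's TAIR10.1 table, used for names and gene order only.

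Of 22810 probe sets, 13647 were tested, after removal of 64 controls and, by mean log2 signal, of the dimmest 40% of the rest. The fit on log2 intensities used limma 3.58.1 and R 4.3.3 (lmFit, eBayes with a variance trend; Benjamini-Hochberg over all tested; called under 0.05; two-sided). The fit was tested on simulated data. Tables and plots used Python 3.11.15, pandas 2.3.3, numpy 2.4.6 and matplotlib 3.10.9. A lower bound on a fold sets the brighter group's mean log2 signal against the background level on the dimmer group's arrays. All 26 genes may be named; of each nuclear list, up to 3 tested genes with the largest difference and 2 with the highest mean. AT5G15700, the one gene with a probe set in its list, was added after its values were seen. Genes and lists were chosen with earlier results of these data known.

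The alternatives tried were median centring, quantile normalization, offsets of 16 and 64, no filter or a 60% filter, no variance trend, robust variance, array quality weights, a block for the replicate number, each array left out and a 2-fold threshold. Same-numbered arrays did not deviate together.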

Additional observations from a re-analysis of the deposited data

How the results depend on the processing

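The count of the 26 plastid genes called higher was 23 in the analysis reported and 18 to 24 over the alternatives; the 18 are all that were tested once the dimmest 60% were removed. It was 23 with the replicate number as a block, where 13 ribosomal, 3 polymerase and 7 other genes passed, and 23 to 24 with any 1 array left out. The correlations between same-numbered arrays in their deviations from the group means were -0.30, -0.16 and -0.046. Those between differently numbered arrays ran from -0.14 to 0.26. Same-numbered arrays thus did not deviate together, but with 3 arrays per group this cannot exclude a culture or batch in common. Of the single-gene results of the 24 tested genes under the alternatives, 395 kept their direction and their side of the threshold. The other 7 were all of rps14, which passed with median centring (limma adjusted p = 0.0403), offsets of 16 (0.0429) and 64 (0.0431), no variance trend (0.042), robust variance (0.0494) and without sorted-cell replicate 3 (0.0395) or whole-root replicate 3 (0.0397). Sizes depended more on the settings than calls did. With an offset of 64, 16 of the 23 called folds shrank by over 1.5 times, most for accD (4.61 on the log2 scale), and with array quality weights 10 did.

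Of the nuclear partner genes 4 were called, and 3 to 6 with any 1 array left out, 3 with the replicate block and 2 with the dimmest 60% left out, where fewer were tested. Values near 0 changed sign, and for these the cause was not tested: AT1G68660 stood at -0.13 and AT4G12060 at -0.11 with array quality weights, and with 1 array left out AT4G25370 ranged from -0.22 to 0.63 and AT4G12060 from -0.022 to 0.24. Without sorted-cell replicate 1 the partner genes AT4G25370 and AT1G49380 passed as well. Dim whole-root signals limit how well the size of a rise is known for 11 of the 26 genes, and for others just above background.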
